A study of Meloidogyne incognita with 75 samples.

Results

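The 14 third-stage juveniles (J3) of the root-knot nematode Meloidogyne incognita, out of 75 single-animal libraries in all, were ranked by 1 transcript, Mi_00696.1, and divided into the 7 animals with the highest and the 7 with the lowest level of it. The level used was CPM, the counts scaled to a common library total. The ranking is a measured value and not a treatment, so the levels of Mi_00696.1 describe how the groups were drawn and are not a result. All 14 animals carried the same label, J3, with no genotype, strain, age or treatment stated. Each library came from a separate individual, picked under a microscope, staged by its shape and lysed singly, and its messenger RNA was amplified by Smart-seq2, a full-length protocol for very small inputs. The stages used for comparison were par_J2 with 12 libraries and J4 with 8, with smaller use of pre_J2, J4_moulting, J4_female, male and female. The labels do not spell out par_J2, and host plants are not described for any group.

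Several libraries stood nearest the mean of a stage other than their label, by correlation over the 2000 most variable transcripts with each library left out of its own mean. Of the 14 J3 animals, 12 were nearest the J3 mean, and replicates 7 (a high animal) and 13 (a low animal) were nearest the J4 mean. Of the 12 par_J2 animals, 2 were nearest the J3 mean, replicates 10 and 12. Of the 8 J4 animals only replicates 7 and 8 were nearest the J4 mean, and the columns of these 2 stand between those of J3 replicates 10 and 11. The results on the J3 groups, the line between the stages and the par_J2 ranking are also given without these libraries, but the relations and levels within J4, of which 2 animals would remain, are given mainly with them. In J4_female, replicates 2 and 4 were nearest the J3 mean and replicates 3 and 5 nearest the J4 mean. All results that use J4_female are given with these animals only.

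Meloidogyne incognita is an obligate parasite of plant roots. The second-stage juvenile (J2) hatches, enters the root and settles at a feeding site, then swells and passes through the J3 and the fourth stage (J4) in quick succession before the last moult. Animals called J3 by shape alone can therefore differ in how far they have moved from J2 towards J4. The question here was which transcripts went with the level of Mi_00696.1 among J3 animals, and whether animals low in it stood closer to par_J2 or to J4. The files carry no gene names, and no function is therefore stated for any identifier.

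Mi_00696.1 was a large part of the J3 libraries. It took 4.89, 14.1 and 21.3% of the counts (lowest, median and highest) in the 7 high animals and 1.05, 3.08 and 4.69% in the 7 low animals. In CPM the high animals ran from 48851 to 213005 and the low animals from 10518 to 46910. The groups meet without a gap. The last high animal, J3 replicate 12, stood at 48851 CPM and the first low animal, J3 replicate 1, at 46910 CPM. The high animals were replicates 5, 6, 7, 8, 9, 12 and 14, and the low animals replicates 1, 2, 3, 4, 10, 11 and 13. Replicates 5 to 9 were all high, and the labels name neither batch nor date. A batch along the numbering was not tested.

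**Figure D1:**
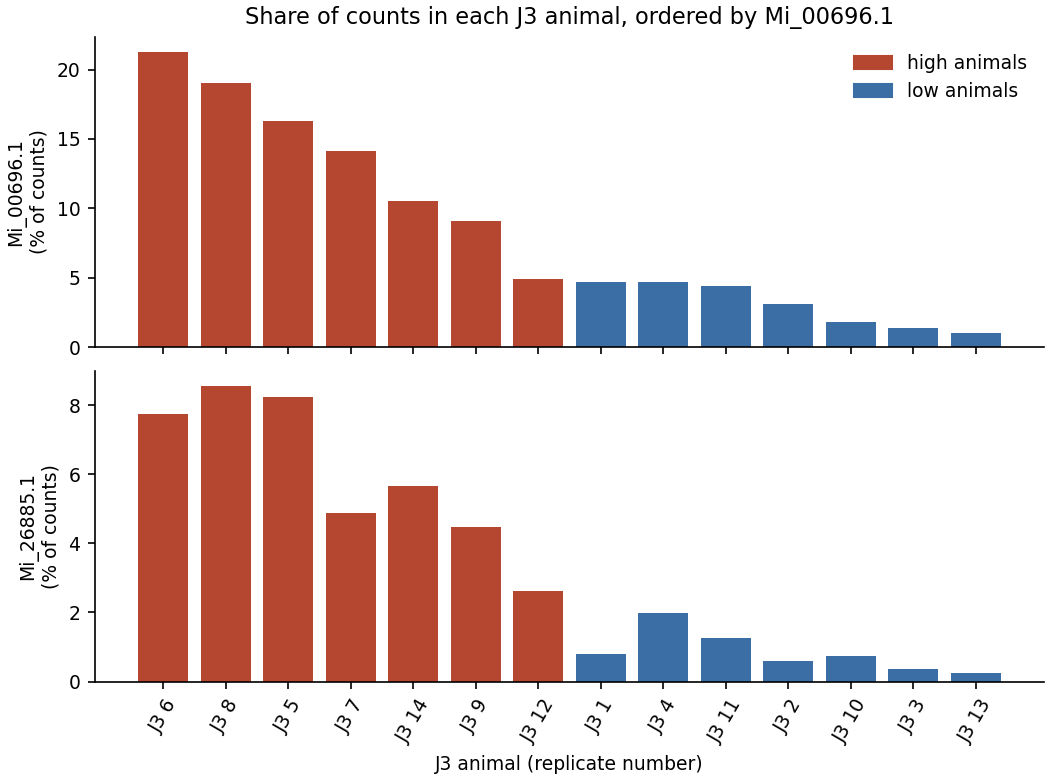
Bars show the percent of each J3 library's counts in Mi_00696.1 (top) and Mi_26885.1 (bottom), with the 14 animals ordered by Mi_00696.1 and coloured as high or low animals. Mi_00696.1 spans 4.89 to 21.3% in high animals and 1.05 to 4.69% in low animals, with no step between J3 replicates 12 and 1, and Mi_26885.1 runs nearly in the same order.

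A second transcript, Mi_26885.1, ran almost in parallel. It stood at 26291, 56596 and 85578 CPM (lowest, median and highest) in the high animals and at 2457, 7499 and 19943 CPM in the low animals. Every high animal lay above every low animal. Over the 14 J3 animals its Spearman correlation with Mi_00696.1 was 0.96, a description of the ranking and not a test. The 2 levels were not in a fixed proportion. Mi_26885.1 reached 0.462 ± 0.0789 of the Mi_00696.1 level in high animals and 0.282 ± 0.1001 in low animals (SD, n = 7 each). The second transcript of the same gene, Mi_00696.2, stood at 1831, 5105 and 12129 CPM in high animals and at 609, 1865 and 2932 CPM in low animals, and here the groups overlapped. Together the transcripts of genes Mi_00696 and Mi_26885 took 7.70 to 30.3% of the counts in high animals and 1.39 to 6.87% in low animals. How reads of near-identical copies were counted is not given in the sources used here, so whether these transcripts share reads was not tested.

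The joint variation of Mi_00696.1 and Mi_26885.1 was also present in animals that the J3 ranking did not use. On log2(CPM + 1), Pearson's r was 0.90 in par_J2 (n = 12), 0.99 in J4 (n = 8), 0.96 in J4_moulting (n = 14), 0.99 in J4_female (n = 8), 0.90 in male (n = 7) and 0.98 in female (n = 7). Spearman's rho was 0.84 in par_J2, 0.98 in J4, 0.96 in J4_moulting, 1 in J4_female, 0.79 in male and 0.96 in female. All 6 relations passed two-sided permutation tests, exact for the stages with fewer than 10 animals, with adjusted p-values over the 6 stages from 6e-05 to 0.0165 for r and from 6e-05 to 0.0480 for rho. The value 6e-05 comes from 1e-05, the smallest p that 100000 resamples can give. Pearson's r was lowest in par_J2 and Spearman's rho was lowest in male. Without the 2 animals farthest from the median, r was 0.74 in par_J2, 0.99 in J4, 0.92 in J4_moulting, 0.98 in J4_female, 0.76 in male and 0.96 in female. No test was made without those animals. Without par_J2 replicates 10 and 12, r was 0.67 (permutation p = 0.0381) and rho was 0.72 (permutation p = 0.0233) in par_J2 (n = 10, two-sided, unadjusted).

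J3 was the stage with the highest median level of Mi_00696.1. The lowest, median and highest values were 10518, 47881 and 213005 CPM in J3 and 556, 3348 and 62439 CPM in par_J2. In J4 they were 118, 3529 and 91936 CPM, in J4_female 21.1, 19004 and 68287 CPM, and in female 168, 2704 and 64380 CPM. The transcript was far lower in J4_moulting, at 2.80, 23.9 and 795 CPM, and in male, at 0.209, 6.69 and 109 CPM. In pre_J2, hatched from eggs in vitro, 4 of 5 animals had no count and 1 had 24 counts. All 14 J3 animals, the low ones included, lay above every J4_moulting and every male animal. The ranges of par_J2, J4, J4_female and female overlapped with the J3 range and with each other. Levels within the range of the low J3 animals were seen only in replicate 10 of par_J2 (14484 CPM) and replicate 1 of J4 (18593 CPM). Replicate 12 of par_J2 and replicates 2 and 3 of J4 lay above that range. Without the animals nearest another stage, however, the highest was 5269 CPM in par_J2 (n = 10) and 4236 CPM in J4 (n = 2), below every J3 animal. Mi_00696.1 was not removed before the nearest stage was set. The animals left out include those highest in it, par_J2 replicates 12 and 10 and J4 replicates 3, 2 and 1. This gap may therefore be partly built in and is a description.

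Few other transcripts passed the test between the groups. The comparison used edgeR's quasi-likelihood test over 27308 transcripts other than Mi_00696.1, with Benjamini-Hochberg adjustment, and called a transcript at an adjusted p under 0.05 and at least a 2-fold change. In this test 6 transcripts were higher and 1 was lower in the high animals, which is 0.0220% and 0.00366% of those tested and 0.0256% in all. At an unadjusted p under 0.05, 1122 were higher and 830 were lower, 4.11% and 3.04%, or 7.15% in all. The median log2 fold change of all tested transcripts was 0.01. A call here says that a transcript goes with the level of Mi_00696.1 among these 14 animals. Nothing says whether these animals came from separate plants or cultures, so the p-values measure only the spread between these samples.

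Mi_04696.1 had the smallest p of the 7. It stood at 70.0, 227 and 394 CPM (lowest, median and highest) in high animals and at 18.0, 20.7 and 56.0 CPM in low animals. All 7 high animals lay above all 7 low animals, and 6 of the low animals lay between 18.0 and 24.4 CPM. The log2 fold change was 3.22 (SE 0.38, edgeR adjusted p = 0.00615). Across stages this transcript was highest in par_J2, J3 and J4, with a median of 60.3 CPM in par_J2, 63.0 in J3 and 27.4 in J4, against 4.44 in J4_female, 1.56 in J4_moulting and 0.481 in female, and no count in 6 of 7 male animals. The 2 J4 animals nearest the J4 mean had 7.30 and 7.41 CPM, below every J3 animal.

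Mi_04679.1 was higher in high animals as well. Its values were 135, 263 and 317 CPM in high animals and 29.6, 63.5 and 115 CPM in low animals, without overlap. The log2 fold change was 2.05 (SE 0.30, edgeR adjusted p = 0.0151). Its stage medians were 211 CPM in par_J2, 125 in J3 and 117 in J4, 4.91 in J4_moulting and 0.253 in male.

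Mi_28647.1 stood at 23.5, 62.4 and 120 CPM in high animals and at 4.82, 11.2 and 17.3 CPM in low animals. The groups did not overlap. Its log2 fold change of 2.79 had an SE of 0.40 (edgeR adjusted p = 0.0151). Mi_20126.1 stood at 15.7, 46.0 and 111 CPM in high animals and at 1.73, 5.15 and 12.5 CPM in low animals, again without overlap. Its log2 fold change was 3.09 (SE 0.46, edgeR adjusted p = 0.0175).

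The remaining 2 increases were of rarer transcripts. Mi_02410.1 stood at 5.53, 10.3 and 31.5 CPM in high animals and at 0.796, 1.14 and 4.09 CPM in low animals, without overlap (log2 fold change 3.22, SE 0.47, edgeR adjusted p = 0.0151). Mi_43929.1 stood at 1.09, 13.6 and 39.5 CPM in high animals and at 0.577, 1.14 and 1.57 CPM in low animals. Here J3 replicate 14, a high animal at 1.09 CPM, lay within the low range while the other 6 high animals stood above it (log2 fold change 4.15, SE 0.60, edgeR adjusted p = 0.0151).

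Mi_22569.1 was the only transcript called lower. It stood at 0.320, 1.72 and 4.49 CPM in high animals and at 6.47, 27.0 and 48.6 CPM in low animals, without overlap. Its log2 fold change was -3.47 (SE 0.50, edgeR adjusted p = 0.0151). In par_J2 it had a median of 29.0 CPM and in J4 of 3.80 CPM, with J4 animals from 0.570 to 63.3 CPM. The low J3 animals therefore had values near the par_J2 median, but J4 animals reached them too. The 2 J4 animals nearest the J4 mean had 58.4 and 63.3 CPM.

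**Figure D2:**
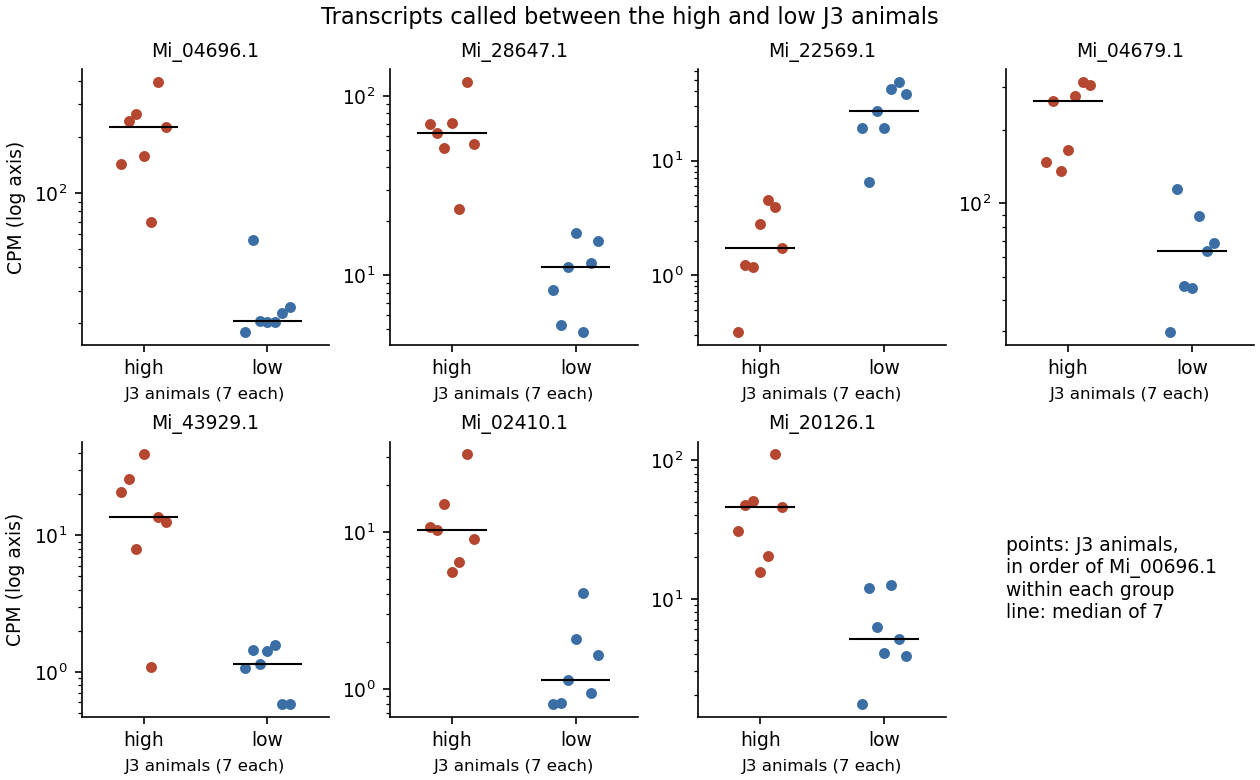
CPM on a log axis of the 7 called transcripts in the 7 high and the 7 low J3 animals, each point an animal and each line a median. For 6 of the 7 transcripts no high animal overlaps a low one, and for Mi_43929.1 a single high animal, at 1.09 CPM, lies among the low ones.

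Of the 7 called transcripts, 6 did not overlap between the groups. Over all tested transcripts, 19 did not overlap with the high animals above and 29 with the high animals below, 0.0696% and 0.106%. These counts use CPM over totals that include genes Mi_00696 and Mi_26885, which lowers the CPM of other transcripts in the high animals. Neither Mi_26885.1 nor Mi_00696.2, which are tied to the ranking and get no p here, was among the 7.

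Within each group the called transcripts did not all follow the rank of Mi_00696.1. Of the 6 that were higher, 5 had their highest value in J3 replicate 9, an animal ranked 6 of 14 by Mi_00696.1. J3 replicate 12, ranked 7, resembled the other high animals in these transcripts. It held 227 CPM of Mi_04696.1, 307 of Mi_04679.1 and 46.0 of Mi_20126.1. J3 replicate 1, next in rank and nearly equal in Mi_00696.1, held 18.0, 29.6 and 1.73 CPM of the same transcripts. These transcripts were called for separating groups that hold replicates 12 and 1 on opposite sides. The contrast between these animals therefore follows from that choice and is no sign of a step at the division. Among the 7 high animals, the Spearman correlation of Mi_04696.1 with Mi_00696.1 was -0.18 and that of Mi_04679.1 was -0.79, and only Mi_22569.1 had a correlation of the same sign and over 0.5 in size in both groups, at -0.71 in each. These within-group values, each over 7 animals, are descriptions.

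**Figure D3:**
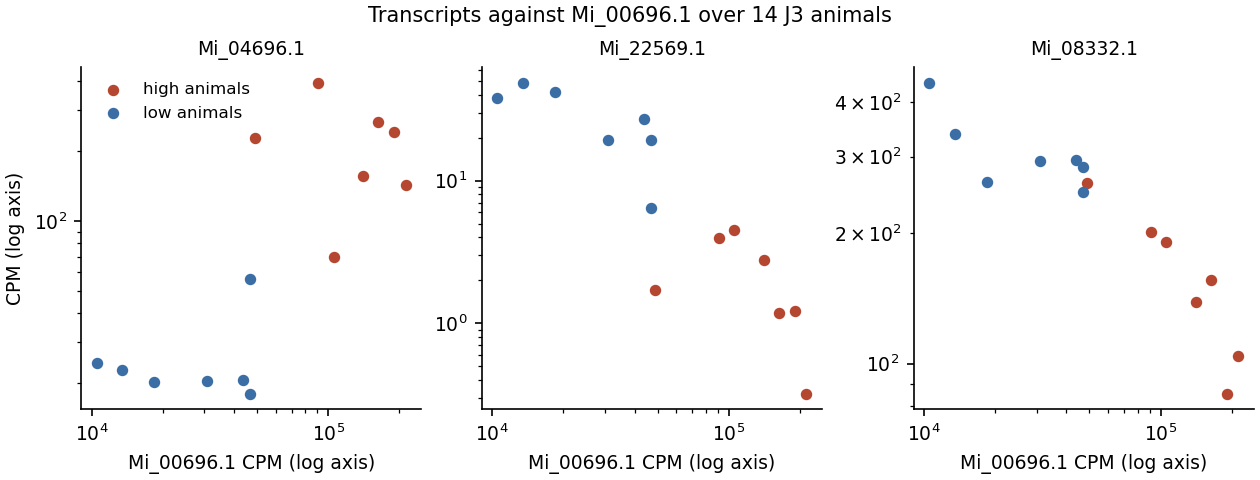
CPM of Mi_04696.1, Mi_22569.1 and Mi_08332.1 against CPM of Mi_00696.1 over the 14 J3 animals, all axes logarithmic. Mi_04696.1 is at least 70.0 CPM in high animals and at most 56.0 CPM in low animals, while Mi_22569.1 and Mi_08332.1 are lower at higher Mi_00696.1.

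The calls depended on where the groups were divided. When animals were ranked by TMM-scaled CPM (scaled by the trimmed mean of M-values), 6 of the 7 high animals stayed the same, none of the 7 transcripts passed (edgeR adjusted p from 0.422 to 0.591), and 1 other transcript was called. A slope on Mi_00696.1 over all 14 animals called 14 transcripts, of which Mi_22569.1 was 1 of the 7.

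Some other fits kept the folds and lost most of the calls, while others kept all 7. With the total count as a covariate only Mi_04696.1 was called (log2 fold change 3.11, edgeR adjusted p = 0.0386), while the other 6 had log2 fold changes of 2.23 to 4.20 and -3.35, with edgeR adjusted p from 0.0753 to 0.197. Without J3 replicate 3, a low animal, again Mi_04696.1 alone was called, and the other 6 had log2 fold changes of 2.03 to 4.02 and -3.33 (edgeR adjusted p from 0.0524 to 0.0694). Without J3 replicate 13, also low, the other 6 had 2.04 to 4.01 and -3.43 (edgeR adjusted p from 0.0581 to 0.0685). Without J3 replicates 7 and 13 together they had 2.13 to 3.76 and -3.47 (edgeR adjusted p from 0.0736 to 0.107). Without J3 replicate 4, a low animal, 29 transcripts were called, all 7 among them. With the 6 highest against the 6 lowest, 2 were called. When libraries were scaled by their total only, 4 were called, and the median log2 fold change of all transcripts moved by -0.20. DESeq2 called 186 higher and 55 lower, all 7 among them. All 7 also stayed called with DESeq2 size factors, without the low-count filter and with counts summed to genes. The same held when any single J3 animal other than replicates 2, 3 and 13 was left out.

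Total counts, those of Mi_00696.1 included, were higher on average in the high animals. High animals had 16274817 ± 5279649 counts and low animals 10954379 ± 2056248 (SD, n = 7 each), and the 50 most abundant transcripts took 34.5 ± 8.09% of counts in high animals and 25.2 ± 6.75% in low animals. The total had an unadjusted p of 0.0326 by a two-sided exact permutation test. Adjusted over the 3 measures other than the share (position, total and detected transcripts), it was 0.0979. The total includes the counts of Mi_00696.1, 4659704 of 21875981 in J3 replicate 6, so this test is not independent of the ranking. Totals without Mi_00696.1 were not compared. The share also contains Mi_00696.1, which drew the groups, and is given as a description. Without the transcripts of both genes, the 50 most abundant took 18.4 ± 2.82% in high animals and 22.4 ± 6.16% in low animals. After thinning to 3000000 counts, 31182 ± 2714 transcripts were detected in high animals and 30192 ± 2751 in low animals (exact permutation p = 0.506, adjusted 0.760). The folds of the 7 transcripts with the total count in the fit are those given above.

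No lean of the low animals to par_J2 or to J4 was detected. A line was drawn from the par_J2 mean, set to 0, to the J4 mean, set to 1, over 1052 transcripts that edgeR called in J4 against par_J2 from libraries that include no J3 animal. Of 27346 transcripts in that comparison, 675 were higher and 377 lower in J4, 2.47% and 1.38%, or 3.85% in all. On this line the high J3 animals stood at 0.544 ± 0.203 and the low J3 animals at 0.522 ± 0.136 (SD, n = 7 each). The high animals ran from 0.244 to 0.835 and the low animals from 0.326 to 0.686, so the low range lay inside the high range. The difference of 0.022 had a 95% interval of -0.182 to 0.223 (inverted exact permutation test, two-sided p = 0.816, adjusted 0.816). Shifts between the groups within that interval were not excluded by these 7 animals each. The positions use CPM over totals that include genes Mi_00696 and Mi_26885. With TMM-scaled CPM the difference was 0.034 (exact permutation p = 0.720). Over totals without these genes, a setting added after the data were seen, it was 0.045 (exact permutation p = 0.649).

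The difference was larger with the middle animals left out, with the low animals nearer par_J2, and did not pass a test there. It was 0.078 with the 6 highest against the 6 lowest (exact permutation p = 0.403) and 0.135 with the 4 highest against the 4 lowest (exact permutation p = 0.2). Over all 14 animals position and log2(CPM + 1) of Mi_00696.1 had a Pearson's r of 0.27 (permutation p = 0.347) and a Spearman's rho of 0.33 (permutation p = 0.246). Without the 2 animals farthest from the median level, r was 0.31.

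The transcripts of the line were chosen for their difference between these par_J2 and J4 libraries, so the places of those libraries on it are a description. With each left out of its own mean but not of that choice, par_J2 animals ran from -0.152 to 0.317 and J4 animals from 0.535 to 1.2. All 14 J3 animals lay between the stage means. The animal nearest par_J2, J3 replicate 12 at 0.244, was a high animal, and so was the one nearest J4, J3 replicate 7 at 0.835. The J4 end was the less certain one. Without J4 replicates 7 and 8 in the fit, J4 against par_J2 gave 151 calls, and without them in the J4 mean the difference between high and low animals was 0.032 (exact permutation p = 0.730). When both means were drawn only from libraries nearest their own stage, which leaves 10 par_J2 and 2 J4 animals, the high animals stood at 0.408 ± 0.148 and the low animals at 0.406 ± 0.135. The difference of 0.0019 had an exact permutation p of 0.978. Without J3 replicates 7 and 13 the difference was -0.011 (exact permutation p = 0.909).

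**Figure D4:**
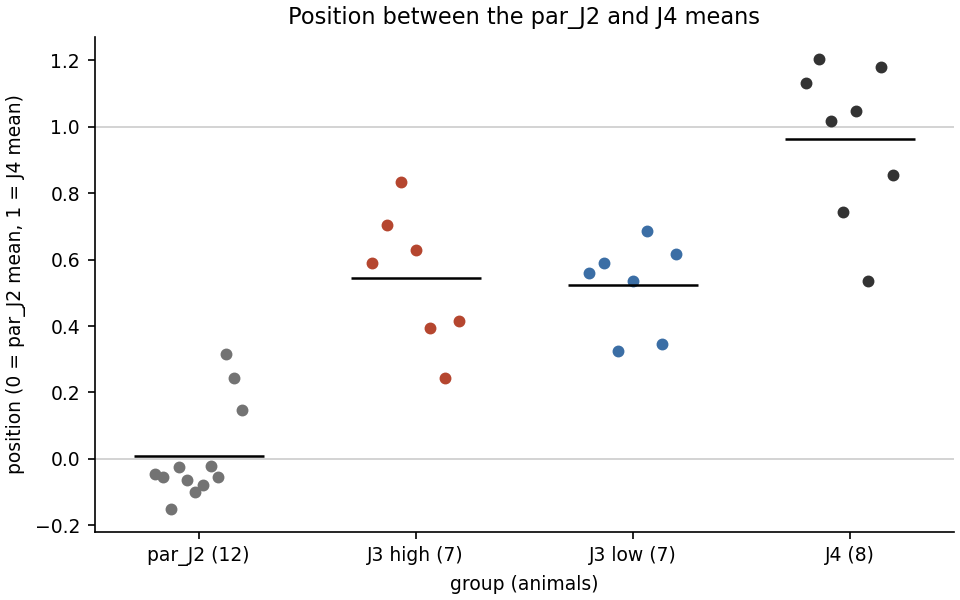
Each point is an animal, placed by its position between the par_J2 mean (0) and the J4 mean (1) over 1052 transcripts, with group means as lines and par_J2 and J4 animals left out of their own mean. High and low J3 animals average 0.544 and 0.522 and overlap over most of their range.

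The called transcripts gave no single direction on this line either. Mi_43929.1 was higher in J4 than in par_J2, with a log2 fold change of 4.15 (SE 1.01, edgeR adjusted p = 0.0255). Mi_20126.1 was lower in J4 than in par_J2, with a log2 fold change of -4.16 (SE 0.83, edgeR adjusted p = 0.00926). Both were higher in the high J3 animals. The other 5 were not called between J4 and par_J2. Without par_J2 replicates 10 and 12 the log2 fold change between J4 and par_J2 was 4.27 for Mi_43929.1 (edgeR adjusted p = 0.0328) and -4.15 for Mi_20126.1 (edgeR adjusted p = 0.0105). With only the 2 J4 animals nearest their own stage it was 0.31 for Mi_43929.1 (edgeR adjusted p = 0.991) and -4.83 for Mi_20126.1 (edgeR adjusted p = 0.0335).

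Transcripts grouped by stage from libraries other than J3 gave few calls. Of 583 tested transcripts higher in J4 than par_J2, 1 was called higher and 0 lower in the high animals (0.172%, against 0.0256% of all tested), and the median log2 fold change was 0.19. Of 371 tested transcripts higher in par_J2 than J4, 1 was called higher and 0 lower, with a median of 0.03. In each of 4 further lists edgeR called 0 transcripts. The lists came from stage comparisons in which 5.10% were higher in J4_moulting than J4, 10.8% in J4_moulting than par_J2, 6.69% in pre_J2 than par_J2, 3.65% in female than J4_female, 4.28% in male than J4_female and 16.4% in male than female. The median log2 fold change was 0.22 for the 836 tested transcripts of J4_moulting, 0.20 for 1339 of pre_J2, 0.11 for 617 of female and 0.08 for 712 of male. The moulting and male lists hold transcripts higher in both of their comparisons. At an unadjusted p under 0.05, 4.11% of all transcripts were higher and 3.04% lower. The J4 list held 36 higher (6.17%) and 3 lower (0.515%), and the par_J2 list 37 higher (9.97%) and 15 lower (4.04%). The J4_moulting list held 67 higher (8.01%) and 5 lower (0.598%), and the pre_J2 list 111 higher (8.29%) and 13 lower (0.971%). The female list held 49 higher (7.94%) and 13 lower (2.11%), and the male list 43 higher (6.04%) and 15 lower (2.11%). The medians of all 6 lists stood above the 0.01 of all transcripts. That of the par_J2 list did not hold without par_J2 replicates 10 and 12, where it was -0.05 over 428 tested transcripts, while that of the J4 list was 0.21 over 698. With par_J2 and J4 both limited to animals nearest their own stage, the median was 0.22 for the J4 list and 0.01 for the par_J2 list. Only 374 of the 1756 transcripts of that J4 list were tested, and 160 of the par_J2 list. At an unadjusted edgeR p under 0.05 the limited J4 list held 2 higher and 1 lower, and the limited par_J2 list 21 higher and 18 lower. The excess of higher over lower transcripts was thus not seen in these limited lists. When libraries were scaled by their total only, the median over all transcripts was -0.19, and the list medians were not computed on that scale.

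As shares of all counts the lists overlapped between the groups. Transcripts higher in J4 than par_J2 took 1.08 to 2.39% of counts in high animals and 0.898 to 2.06% in low animals. Those higher in par_J2 than J4 took 1.61 to 4.84% in high animals and 2.18 to 4.60% in low animals. Those of J4_moulting took 0.932 to 2.00% in high animals and 0.869 to 1.35% in low animals. The totals include genes Mi_00696 and Mi_26885, up to 30.3% of counts in high animals and 6.87% in low animals. This lowers the shares of the lists more in high animals, and shares over totals without these genes were not computed.

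Beyond the test, the transcripts most like Mi_00696.1 over the 14 animals were sought by Spearman correlation among 11913 transcripts with a mean of at least 10 CPM in J3. After Mi_26885.1, Mi_28887.1 came next with 0.91. It stood at 1.58, 12.6 and 5601 CPM in high animals and at 0, 0.939 and 2.79 CPM in low animals. The signal was concentrated in 3 animals, J3 replicates 6, 8 and 7, at 5601, 1901 and 848 CPM, which ranked 1, 2 and 4 by Mi_00696.1. Mi_00696.2 followed with 0.90.

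Mi_16609.1 had a correlation of 0.87, with 33, 68.7 and 284 CPM in high animals and 7.30, 17.2 and 36.7 CPM in low animals. It belongs to the transcripts higher in J4 than in par_J2. Mi_33358.1 had 0.85, with 27.4, 51.9 and 73.5 CPM in high animals and 12.3, 26.8 and 37.4 CPM in low animals. Both overlapped slightly between the groups, and neither was among the 7 called.

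The most opposite were Mi_08332.1 with -0.96, Mi_29612.1 with -0.95 and Mi_25091.1 with -0.95. These correlations use CPM over totals that include genes Mi_00696 and Mi_26885, up to 30.3% of counts in high animals. A high level of these genes lowers the CPM of every other transcript, so a negative correlation is partly built in. Correlations over totals without them were not computed. Mi_08332.1 stood at 85.2, 156 and 260 CPM in high animals and at 249, 293 and 444 CPM in low animals. Its level was graded along the ranking, and 6 of the 7 high animals lay below every low animal. Mi_29612.1 stood at 0, 1.76 and 10.4 CPM in high animals and at 4.22, 33.2 and 91.6 CPM in low animals. The 2 highest-ranked animals, J3 replicates 6 and 8, had no count of it, and it had none in any male or female animal. Mi_25091.1 stood at 74.3, 117 and 128 CPM in high animals and at 122, 137 and 189 CPM in low animals. With TMM scaling the log2 fold change was -0.77 for Mi_08332.1, -3.66 for Mi_29612.1 and -0.37 for Mi_25091.1, and none was among the 7 called.

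The same ranking among par_J2 animals gave no calls. With the 6 par_J2 animals highest in Mi_00696.1 against the 6 lowest, edgeR called 0 of 21607 transcripts, with 764 (3.54%) at an unadjusted p under 0.05. There were 0 calls under DESeq2 size factors, and 0 without par_J2 replicates 10 and 12. Of the 7 transcripts called in J3, 5 were tested there, and 4 of these had the same sign as in J3, with log2 fold changes from 0.38 to 0.95 and an edgeR adjusted p of 1 for each. The exception was Mi_22569.1, at 69.9 ± 90.5 CPM in the high par_J2 animals and 32.8 ± 15.1 CPM in the low par_J2 animals (SD, n = 6 each). The difference between the J3 and the par_J2 contrasts was tested in a single edgeR fit. Of 31487 transcripts, 2 had a larger and 47 a smaller log2 fold change in J3 than in par_J2, 0.00635% and 0.149% or 0.156% in all, with 11.2% at an unadjusted p under 0.05. None of the 7 was among them, and their edgeR adjusted p ran from 0.0700 for Mi_22569.1 to 0.881. Without par_J2 replicates 10 and 12, 16 transcripts were called, all smaller in J3. A difference of the 7 between the stages was thus not shown.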

How the data were processed

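Counts per transcript were used for single-animal libraries of J3 (n = 14), par_J2 (n = 12) and J4 (n = 8), and of the other stages where named. The authors deposited 2 tables of raw read counts in whole numbers. HISAT2 2.2.1 and StringTie 2.2.1 were used, per the submitters' processing notes. The genome build is not given in the sources used here, nor are the annotation, strandedness or counting options. The full table (45378 transcripts) was used, the filtered one (22287) as an alternative. J3 totals ran from 7368670 to 22172586 counts. Smart-seq2 has no molecular identifiers.

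CPM is over the library total. edgeR 4.0.16 in R 4.3.3 was run with filterByExpr, TMM and the robust quasi-likelihood test. An SE was taken as the size of the log2 fold change divided by the root of its F value. Single values per animal were compared by exact permutation tests (3432 splits, smallest two-sided p 0.000583). DESeq2 1.42.0 and limma 3.58.1 were alternatives. Scripts used Python 3.11.15, numpy 2.4.6, pandas 2.3.3 and matplotlib 3.10.9, and the split was tested on simulated data. Named are up to 8 called transcripts per direction that reach 1 CPM in 6 animals of the higher group, and the 5 most and 3 least correlated with Mi_00696.1. Mi_26885.1 and Mi_00696.2 stayed in the fit, but their difference between the J3 groups is described with no p. The ranking, members and lists were chosen with earlier results of these data known. No pair of J3 libraries agreed within sampling noise (lowest chi-square per degree of freedom 45.9).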

Additional observations from a re-analysis of the deposited data

Results flagged for a closer look

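In 45 groups of 4 to 10 animals, a sample far from the others was sought by Dixon's test, and 10 were found. For normally distributed values the test flags about 1 in 20 groups by chance. CPM was not log-transformed here, and each flag was the highest value of its group. The 10 flags are therefore a description and no measure of an excess. J3 replicate 1 had 15070404 counts, the most of the low animals, and the next had 11362763. Mi_04696.1 reached 56.0 CPM in J3 replicate 4, against at most 24.4 CPM in the other low animals. J3 replicate 9 stood apart from the other high animals in Mi_02410.1, at 31.5 CPM with the next at 15.2, and in Mi_20126.1, at 111 CPM with the next at 50.7. J3 replicate 10 stood apart from the other low animals in Mi_02410.1, at 4.09 CPM with the next at 2.07. Mi_28887.1 reached 5601 CPM in J3 replicate 6 and 1901 in the next high animal. Mi_29612.1 was at 10.4 CPM in J3 replicate 14, against at most 2.15 CPM in the other high animals, and at 91.6 CPM in J3 replicate 13, with the next low animal at 41.4. Mi_00696.1 was at 64380 CPM in female replicate 6, with the next female at 6090, and at 2.67 CPM in pre_J2 replicate 1 with no count in the other pre_J2 animals.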

How the results depend on the processing

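The 7 calls between high and low J3 animals stayed within 1.5 times under 17 of 31 alternatives. These alternatives are not all separate. The fit without the library of lowest total is also the fit without J3 replicate 8. The setting without a fold threshold is the main fit again. The count was 4 with total counts alone. It was also 4 in the deposited filtered table, where Mi_02410.1, Mi_20126.1 and Mi_28647.1 were not tested and the other 4 stayed called. It was 241 by DESeq2, 21 by limma-voom and 2 with the 6 highest against the 6 lowest. With the 4 highest against the 4 lowest it was 14, and for a slope on Mi_00696.1 also 14. It was 1 each with TMM-scaled ranking, the total count as a covariate and an adjusted p under 0.01. Leaving out 1 animal gave 1 to 29 calls. Without J3 replicates 7 and 13, which lie nearest the J4 mean (chosen after the data were seen), 1 was called. The cause of the shifts other than that in the filtered table was not tested. None of the 7 called transcripts changed sign, and the other named transcripts were not followed through the alternatives. Mi_04696.1 was lost in 2 of 31 alternatives (adjusted p from 2.11e-14 to 0.484), and the others in 7 to 11 of the 30 or 31 that tested them. The position difference had p over 0.05 throughout and changed sign over all transcripts (-0.0053), over the 2000 most variable ones (-0.012) and without replicates 7 and 13 (-0.011), with a leave-one-out range of -0.026 to 0.072. It was 0.078 with the 6 highest against the 6 lowest and 0.135 with the 4 highest against the 4 lowest. The share of the 200 most abundant transcripts, which contains Mi_00696.1, differed by 7.35 percentage points, against 9.32 for the 50 most abundant. J4 against par_J2 gave 1052 calls, 151 without J4 replicates 7 and 8, 2344 by DESeq2 and 2703 with the replicate number as a block. Same-numbered J4 and par_J2 animals did not deviate together (r from -0.077 to 0.029, 0 of 8 pairs best with their own number), so the numbers do not pair them, and high and low J3 animals share none. The J3 and par_J2 contrasts differed for 49 transcripts, 36 under DESeq2 size factors and 16 without par_J2 replicates 10 and 12 (added after the data were seen). Counts of a few CPM rest on few molecules in a single animal, and technical replicates of an animal were not analysed here.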
